A study of Rattus with 6 samples.

Results

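The genes Col1a1 (ENSRNOG00000003897), Col1a2 (ENSRNOG00000011292), Col3a1 (ENSRNOG00000003357), Fn1 (ENSRNOG00000014288), Postn (ENSRNOG00000012660), Dcn (ENSRNOG00000004554) and Vim (ENSRNOG00000018087) were followed as a measure of fibroblast RNA in preparations of isolated ventricular cardiomyocytes from rats. They are 7 of the 23092 genes listed, chosen by identifier as fibroblast and extracellular matrix genes, with earlier results of these data known. The libraries were made from poly(A)-selected RNA of wild-type male Wistar rats aged 8 weeks. The 3 hypergravity libraries came from rats centrifuged at 4 g for 8 hours a day over 14 days, and the 3 control libraries from rats without hypergravity. Nothing in the labels says whether each library came from a separate animal, so the p-values below measure the spread between these libraries. The comparison asks whether the fibroblast and matrix transcripts that accompany the cardiomyocytes differed after hypergravity.

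Cardiac fibroblasts lie between the muscle cells and build most of the interstitial matrix of the heart. The fibrillar collagens type I and type III carry its tensile load, fibronectin and the proteoglycan decorin organise the fibres, and periostin is a matricellular protein that activated fibroblasts secrete. Adult cardiomyocytes make little of these transcripts, so in a cardiomyocyte preparation such genes are read as a sign of the fibroblasts carried along. Vimentin, an intermediate filament protein, is shared by fibroblasts, endothelial cells, mural cells and leukocytes, and fibronectin is not restricted to fibroblasts either.

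The main observation was a difference in the proportions among these genes. Their summed level overlapped between the groups, and its difference was not tested. The ratios of the 3 collagens to Dcn, Vim and Fn1 within a library were higher after hypergravity than in the control group. None of these ratios overlapped between the groups, where 20.3% of all pairs of tested genes did not overlap either. The exact permutation p of each was 0.1, the lowest possible here, and 0.191 after Benjamini-Hochberg adjustment. Which ratios to set out was decided after the values were seen. The level of each single gene overlapped between the groups, and no gene passed the test on its own. The libraries held 24440690 to 45497422 counts on genes. Levels are given as CPM, the counts divided by a library size that was scaled by TMM, the trimmed mean of M values, with scaling factors from 0.774 to 1.52. Levels are compared between libraries for the same gene, not between genes, because gene lengths were not used.

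All 7 genes had counts in all 6 libraries. Col1a1, which encodes a chain of type I collagen, stood at 10.2, 1.58 and 18.1 CPM in control libraries 1, 2 and 3. In hypergravity libraries 1, 2 and 3 it stood at 14.4, 32.1 and 42.7 CPM. Hypergravity libraries 2 and 3 lay above all control libraries, while hypergravity library 1 lay below control library 3.

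Col1a2, which encodes the partner chain of type I collagen, was at 13.8, 3.73 and 24.6 CPM in the control libraries. After hypergravity it was at 12.3, 31.3 and 47.5 CPM. The same pair of hypergravity libraries stood highest, and hypergravity library 1 lay below control libraries 1 and 3.

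Col3a1 encodes the chain of type III collagen, the finer fibrillar collagen that is laid down together with type I. Its levels were 30.3, 5.13 and 38.6 CPM in the control libraries and 31.8, 83.7 and 128.5 CPM in hypergravity libraries 1, 2 and 3. Control library 1 and hypergravity library 1 were close to each other for this gene.

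Dcn, the proteoglycan decorin that binds collagen fibrils, had a lower mean after hypergravity, unlike the collagens. It was at 43.8, 7.32 and 58.8 CPM in the control libraries and at 10.5, 25.4 and 58.0 CPM in the hypergravity libraries. Hypergravity library 3 and control library 3 were almost equal, and hypergravity libraries 1 and 2 lay between control library 2 and control library 1.

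Vim was at 39.5, 6.18 and 34.6 CPM in the control libraries. In hypergravity libraries 1, 2 and 3 it was at 6.04, 13.1 and 34.5 CPM. It was the only one of these genes with its lowest level in hypergravity library 1, since the other 6 were lowest in control library 2.

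Fn1, fibronectin, was at 7.72, 1.71 and 17.1 CPM in the control libraries and at 2.86, 7.70 and 12.2 CPM in the hypergravity libraries. The highest and the lowest of the 6 values both belonged to the control group. Postn, periostin, was the sparsest of the genes in counts. It had 7, 2 and 244 counts in control libraries 1, 2 and 3, which are 0.344, 0.0877 and 6.27 CPM. The 2 counts in control library 2 carry an exact Poisson 95% interval of 0.242 to 7.22 counts, which covers counting error only. The hypergravity libraries had 19, 85 and 27 counts, or 0.428, 1.23 and 1.37 CPM. Control library 3 alone thus exceeded every other library for Postn, and the remaining controls lay below all hypergravity libraries, although their counting intervals overlapped that of hypergravity library 1.

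**Figure D1:**
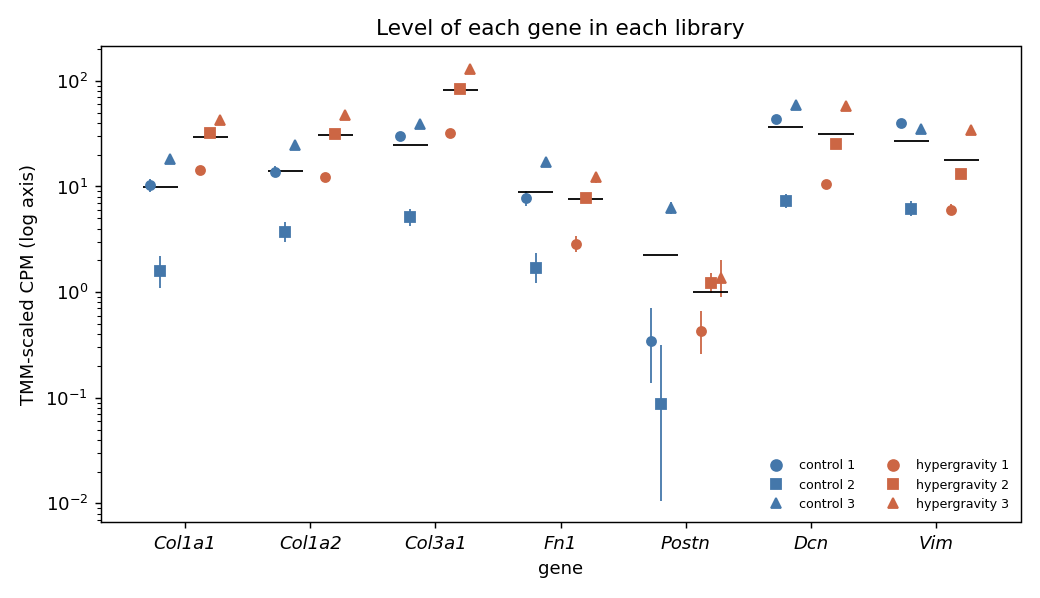
TMM-scaled CPM (log axis) of each gene in each control (blue) and hypergravity (orange) library, with exact Poisson 95% intervals as vertical lines and group means as black bars. Control library 2 is lowest for 6 of the 7 genes, and for each gene the values of the groups overlap.

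The summed level of the 7 genes was 145.7, 25.7 and 198.2 CPM in control libraries 1, 2 and 3 and 78.3, 194.6 and 324.8 CPM in hypergravity libraries 1, 2 and 3. The means were 123.2 ± 88.4 CPM (SD, n = 3) in the control group and 199.2 ± 123.3 CPM (SD, n = 3) after hypergravity. The groups overlapped, and the SD within a group exceeded the difference of the means. In bulk RNA, fewer cells of a type and less RNA per cell cannot be told apart. The library at the top depended on the scaling. As a share of all counts on genes, hypergravity library 2 held 0.0296% and hypergravity library 3 held 0.0261%, with 95% Wilson intervals of at most 0.000641 percentage points to either side. Control library 2 remained lowest on that scale, with 0.00199%.

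The spread between libraries of the same group was large for all 7 genes. Between the highest and the lowest library, Col1a1 differed 11.5-fold within the control group and 2.97-fold within the hypergravity group. For Dcn these ranges were 8.03-fold and 5.51-fold, and for Vim 6.39-fold and 5.72-fold. Postn ranged from 2 to 244 counts in the control group and 3.21-fold in CPM after hypergravity. The within-group SD of log2(CPM + 0.5) ran from 1.16 for Col1a2 to 1.40 for Dcn, where the median over the 11905 genes tested was 0.24. Col1a2, the least variable of them, had a larger SD than 99.1% of the tested genes.

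**Figure D2:**
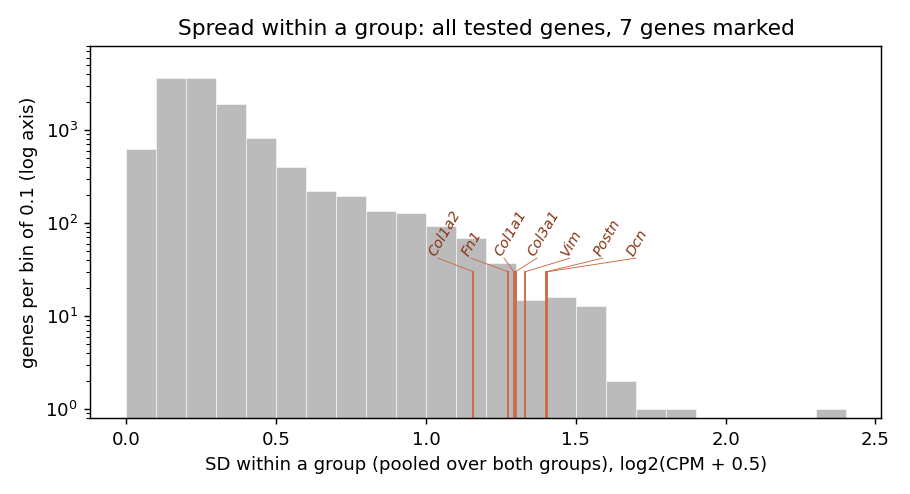
Number of tested genes (log axis) by the SD of log2(CPM + 0.5) within a group, pooled over both groups, in bins of 0.1. The 7 marked genes lie between 1.16 and 1.40, in the far right of the distribution, whose median is 0.24.

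All 7 genes passed the filter on low counts and entered the test of hypergravity against control. None was called higher and none lower at an adjusted p-value under 0.05 in edgeR's quasi-likelihood test, adjusted by Benjamini-Hochberg over 11905 genes. By that rule 0.0336% of all tested genes were called, in either direction. At an unadjusted p-value under 0.05, 1 of the 7 genes was higher with edgeR, where 7.35% of all tested genes were, and 0 were lower, where 6.22% were. With DESeq2, which gave no p-value for Postn, 0 of the other 6 were higher (6.94% of all genes), and with limma-voom 2 of 7 were (7.06%). The count in edgeR was 3 with no scaling beyond library size (7.08% of all genes), 4 without control library 3 (5.34%) and 3 without hypergravity library 1 (8.17%). It was 0 without control library 1 (4.67%), hypergravity library 2 (5.03%) or hypergravity library 3 (7.71%), and 2 without control library 2 (6.78%). The levels of 0 of the 7 genes lay above the control group without overlap, where 11.3% of all tested genes did, and 0 lay below it, where 10.5% did. The count above rose to 3 without control library 3, where 15.0% of all genes tested then did, and to 3 without hypergravity library 1, where 17.9% did, with Col1a1 and Col3a1 among them both times. The count below rose to 1, Vim, without control library 2, where 14.8% did.

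The collagens had positive fitted differences. Col3a1 averaged 24.7 ± 17.4 CPM (SD, n = 3) in the control group and 81.3 ± 48.4 CPM (SD, n = 3) after hypergravity, a log2 fold change of 1.71 with a standard error of 0.70. Its edgeR p-value was 0.0400 before and 0.348 after adjustment, and the 95% interval of the fold ran from 1.07 to 10.03. Col1a1 averaged 9.98 ± 8.29 and 29.7 ± 14.3 CPM (SD, n = 3), a log2 fold change of 1.55 with a standard error of 0.70 (edgeR adjusted p = 0.384). Its fold interval ran from 0.956 to 8.98. Col1a2 averaged 14.0 ± 10.5 and 30.4 ± 17.6 CPM (SD, n = 3), a log2 fold change of 1.10 with a standard error of 0.65 (edgeR adjusted p = 0.485). The fold interval of Col1a2 ran from 0.762 to 5.99. None of these collagen differences passed the test. The intervals of Col1a1 and Col1a2 included no change, and each of the collagen intervals also reached far above it.

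The fitted log2 fold changes of the other genes were negative and smaller than their errors or close to them. Vim averaged 26.8 ± 18.0 CPM in the control group and 17.9 ± 14.8 CPM after hypergravity (SD, n = 3), a log2 fold change of -0.60 with a 95% interval from -2.29 to 1.08. Dcn averaged 36.6 ± 26.5 and 31.3 ± 24.3 CPM (SD, n = 3), a log2 fold change of -0.24 with an interval from -1.97 to 1.48. Fn1 averaged 8.84 ± 7.75 and 7.59 ± 4.67 CPM (SD, n = 3), a log2 fold change of -0.26 with an interval from -1.94 to 1.42. Postn averaged 2.23 ± 3.50 and 1.01 ± 0.509 CPM (SD, n = 3), a log2 fold change of -1.21 with an interval from -3.88 to 1.46. Without control library 3, the log2 fold change of Postn was 2.21 (edgeR adjusted p = 0.435), that of Fn1 0.68 and that of Dcn 0.28, so 1 library set the direction for each of them. Without hypergravity library 1, Fn1 (0.17) and Dcn (0.20) were positive as well. The adjusted p-values of Vim, Dcn, Fn1 and Postn ran from 0.673 to 0.915. The median log2 fold change of the 7 genes was -0.24, beside -0.02 over all tested genes, and its sign rested on single libraries. It was 1.79 without control library 3, 0.20 without hypergravity library 1, -0.71 without control library 2 and -0.75 without hypergravity library 3.

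**Figure D3:**
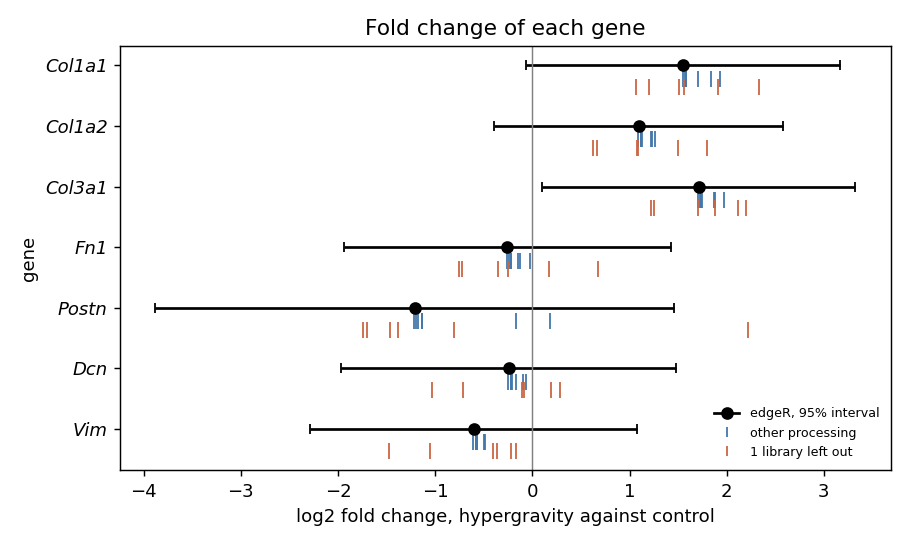
Log2 fold change of each gene, hypergravity against control, from edgeR with its 95% interval (black), under other processing (blue ticks) and with each library left out in turn (orange ticks). The collagens and Vim keep their sign throughout, while the ticks of Fn1, Postn and Dcn fall on both sides of 0.

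Proportions among the genes were compared by ratios of counts within a library, which need no scaling. Of the counts on the 7 genes, the collagens took 37.3, 40.6 and 41.1% in control libraries 1, 2 and 3 and 74.7, 75.6 and 67.3% in hypergravity libraries 1, 2 and 3. Their means were 39.6 ± 2.05% (SD, n = 3) and 72.5 ± 4.54% (SD, n = 3). Dcn and Vim together took 57.2, 52.5 and 47.2% in the control libraries against 21.1, 19.8 and 28.5% in the hypergravity libraries. The groups did not overlap in either share. Both shares are parts of the same total, so they are not separate results, and such shares were not computed for other sets of genes. The 95% Wilson interval of each was no wider than 4.03 percentage points on each side, and covers counting error only.

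Control library 2 had the lowest summed level, and its shares of Col3a1 and Dcn were close to those of the other controls. In that library Col3a1 took 19.9% of these counts and Dcn 28.5%, beside 20.8% and 30.1% in control library 1 and 19.5% and 29.7% in control library 3. Other genes differed more among the controls, with Vim at 27.1, 24.0 and 17.5% and Col1a2 at 9.45, 14.5 and 12.4% in control libraries 1, 2 and 3. In hypergravity libraries 1, 2 and 3, Col3a1 took 40.6, 43.0 and 39.6% and Dcn 13.4, 13.0 and 17.9%. The 95% Wilson interval of any such share of a single gene was no wider than 3.64 percentage points on each side, and covers counting error only.

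**Figure D4:**
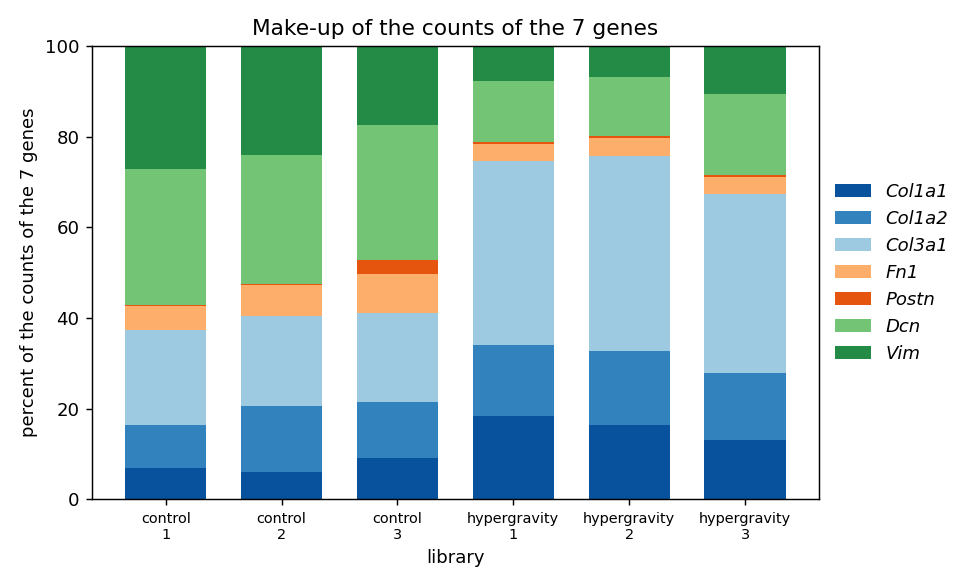
Percent of the counts on the 7 genes taken by each gene in each library (bars add up to 100%, and a share also reflects the length of the gene). The collagens (blue) take 37.3 to 41.1% in the control libraries and 67.3 to 75.6% in the hypergravity libraries.

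The ratio of Col3a1 to Dcn was 0.692, 0.701 and 0.657 in control libraries 1, 2 and 3. It was 3.02, 3.30 and 2.21 in hypergravity libraries 1, 2 and 3. The geometric means, 0.683 and 2.81, differed 4.11-fold, with a log2 SD of 0.05 in the control group and 0.30 after hypergravity. This difference was larger than the spread in either group, and 3 of 3 hypergravity libraries lay above each control library. An exact permutation test, two-sided, gave p = 0.1, and no smaller p can be reached with 3 libraries in each group. Adjusted by Benjamini-Hochberg over 21 ratios, this p was 0.191.

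The ratio of Col1a1 to Vim was 0.259, 0.255 and 0.524 in the control libraries and 2.38, 2.44 and 1.24 in the hypergravity libraries, a 5.92-fold difference of geometric means. Col3a1 to Vim differed 5.60-fold, from 0.892 to 5.00, and Col1a2 to Vim 3.55-fold, from 0.531 to 1.88. Against Dcn, Col1a1 differed 4.34-fold and Col1a2 2.61-fold. Hypergravity library 3 had the lowest collagen ratios of its group against both Vim and Dcn.

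Against Fn1 the collagens also separated the groups. The ratio of Col3a1 to Fn1 was 3.93, 3.00 and 2.26 in the control libraries and 11.1, 10.9 and 10.5 in the hypergravity libraries, a 3.63-fold difference. Col1a1 to Fn1 differed 3.83-fold and Col1a2 to Fn1 2.30-fold. Each of the 9 ratios of a collagen to Vim, Dcn or Fn1 was higher in all hypergravity libraries than in all control libraries. Over all pairs of tested genes, 20.3% did not overlap in either direction. The exact permutation p was the same for each ratio, at 0.1, or 0.191 after Benjamini-Hochberg adjustment over 21 ratios. The 9 ratios share genes and libraries, so they are not independent of each other.

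The ratios among Vim, Dcn and Fn1 overlapped between the groups. Dcn to Vim was 1.11, 1.18 and 1.70 in the control libraries and 1.74, 1.93 and 1.68 in the hypergravity libraries. Fn1 to Vim was 0.196, 0.277 and 0.493 in the control libraries and 0.474, 0.586 and 0.353 in the hypergravity libraries, with geometric means of 0.299 and 0.461. Without control library 3, where 28.5% of all pairs of tested genes did not overlap, both Dcn to Vim and Fn1 to Vim did not overlap and were higher after hypergravity. Dcn to Vim did not overlap without hypergravity library 3 either, where 34.8% of all pairs did not. Fn1 to Dcn had geometric means of 0.229 and 0.259. None of the 6 ratios with Postn separated the groups. Postn in control library 3 stood far above the other controls relative to each partner gene, and without that library the ratios of Postn to Col1a2, Fn1, Dcn and Vim did not overlap between the groups, while those to Col1a1 and Col3a1 still did.

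Among the collagens the proportions differed less. Col1a1 to Col1a2 was 0.743, 0.424 and 0.737 in the control libraries and 1.17, 1.02 and 0.897 in the hypergravity libraries, a 1.67-fold difference without overlap (exact permutation p = 0.1, adjusted 0.191). The control library with 0.424 had only 36 counts of Col1a1. Col1a2 to Col3a1 was lower in each hypergravity library, with geometric means of 0.595 and 0.377. Col1a1 to Col3a1 overlapped, at 0.365 and 0.386.

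Of the 21 ratios between these genes, 11 did not overlap between the groups. Over all pairs of tested genes 20.3% did not overlap. With a mean log2 difference of at least 1 required as well, 9 of the 21 remained, where 6.09% of all pairs did. With each library left out in turn, 11 to 17 of the 21 ratios did not overlap, where 24.5 to 34.8% of all pairs did not. The count of 17 came without control library 3, where 28.5% of all pairs did not overlap.

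**Figure D5:**
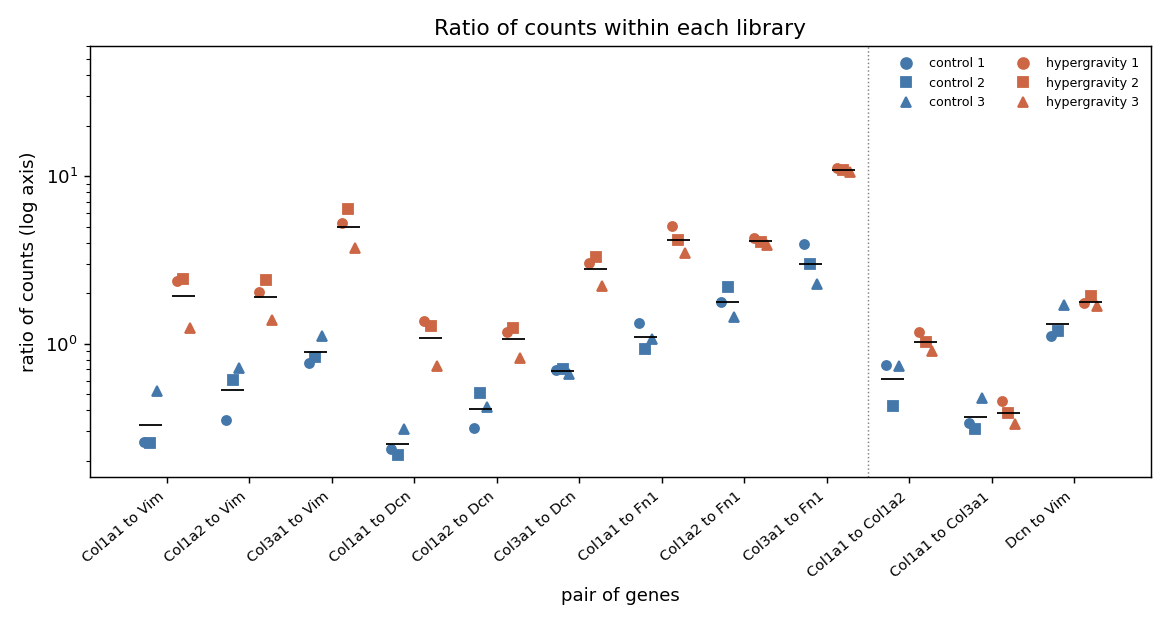
Ratio of counts of pairs of the genes (log axis) in each control (blue) and hypergravity (orange) library, with geometric means as black bars. Left of the dotted line, each ratio of a collagen to Vim, Dcn or Fn1 is higher in all hypergravity than in all control libraries, and right of it Col1a1 to Col3a1 and Dcn to Vim overlap.

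A profile over the 6 libraries was formed from the mean of the standardised log2(CPM + 0.5) of the 7 genes, from -1.46 in control library 2 and -0.58 in hypergravity library 1 to 0.77 in control library 3 and 0.88 in hypergravity library 3. Of the other 11898 tested genes, those listed as ENSRNOG00000045952 (Pearson r = 0.999 over 6 libraries) and ENSRNOG00000004613 (r = 0.999) had the profiles most like it. With 6 libraries and so many genes compared, values of r this high are a description only. ENSRNOG00000004613 ranged from 0.131 CPM in control library 2 to 1.78 CPM in hypergravity library 3, and ENSRNOG00000045952 from 6.75 to 10.9 CPM in the same libraries.

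The share of alignments counted in no feature was 2.85 to 3.20% in the control and 4.07 to 4.40% in the hypergravity libraries. It thus separated the groups in the same way as the collagen ratios. All alignments that were not assigned to a gene took 8.55 to 8.96% in the control libraries and 9.37 to 9.92% in the hypergravity libraries, also without overlap. The part of either share in those ratios was not tested. The 10 most abundant genes took 52.5 to 73.4% of the counts per library, with overlap between the groups. Defining markers of cardiomyocytes, endothelial cells, mural cells, leukocytes and further fibroblast genes were not analysed here, because their identifiers could not be paired with symbols. The label of the tissue was therefore not checked against its own markers, and the cell type that gave these transcripts was not tested.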

How the data were processed

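RNA of 6 libraries was analysed, 3 control and 3 hypergravity, grouped by the sample titles. The deposited values are raw read counts per Ensembl gene, 1 file per library. The submitters' processing notes name FastQC, Trimmomatic, HISAT2, HTSeq and the genome build mRatBN7.2. Versions, the strand setting and the annotation release are not given in the sources used here. Without strand, reads of overlapping genes would not be told apart. The summary categories of HTSeq (8.55 to 8.96% of the listed alignments in the control and 9.37 to 9.92% in the hypergravity libraries) were left out of library sizes and tests.

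The symbols of the 7 genes came with their identifiers from the definition of the gene list. The files hold no symbols, and the table of rat genes at hand (RefSeq, GRCr8) matched 0 of the 23092 identifiers. Coordinates, sequences, lengths and the further gene lists (other matrix genes, markers of 6 cell types) were therefore not used here. The genes and lists were chosen with earlier results of these data known. All 7 genes were to be named, with the 2 genes of the most similar profile.

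Counts were fitted with edgeR (4.0.16, R 4.3.3): TMM, filterByExpr (11905 genes), the quasi-likelihood test, Benjamini-Hochberg adjustment and a threshold of 0.05. A standard error is the ratio of a log2 fold change to the root of its F statistic. Alternatives used DESeq2 (1.42.0), limma-voom (limma 3.58.1), other scalings and filters, the replicate number as a block, and the omission of each library. Ratios are of raw counts; for all pairs of genes, 0.5 was added to each count. The fits were tested on simulated data. No library was a copy of another (chi-square per degree of freedom at least 29.7).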

Additional observations from a re-analysis of the deposited data

How the results depend on the processing

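None of the 7 genes was called in any of the 13 alternatives (adjusted p from 0.279 to 0.994), except that DESeq2 gave no p-value for Postn. Col1a1, Col1a2, Col3a1 and Vim kept their direction in all 13, with log2 fold changes of 1.07 to 2.34, 0.63 to 1.79, 1.22 to 2.20 and -1.47 to -0.16. With no scaling beyond library size the median over all genes moved from -0.02 to 0.32 (log2), and no gene of the 7 changed direction. With each library left out in turn, Fn1 ran from -0.75 to 0.68, Postn from -1.75 to 2.21 and Dcn from -1.03 to 0.28. Postn turned positive without control library 3, and Fn1 and Dcn without control library 3 or hypergravity library 1 (Fn1 0.17, Dcn 0.20). Postn was also positive with the replicate block (0.18, then the median of the 7 genes), which called 0 genes of all tested in place of 4. Libraries with equal numbers were not the most alike: their deviations correlated at -0.428, -0.143 and 0.114 across genes. The highest correlations were 0.592 (control 2 with hypergravity 1), 0.320 (control 1 with hypergravity 3) and 0.214 (control 3 with hypergravity 2). Thus 0 of 6 libraries correlated best with their own number. Deviations from a mean of 3 libraries constrain each other, so pairing or a shared batch could not be decided this way. Genes of the 7 without overlap ran from 0 to 3 higher and from 0 to 1 lower (Vim, without control library 2) over these fits. The log2 difference in Col3a1 to Col1a1 (-0.08) ran from -0.26 to 0.04, positive without control library 2 (0.044) or hypergravity library 1 (0.033). Those in Col1a2 to Col1a1 (-0.87 to -0.47), Col1a1 to Dcn (1.95 to 2.40) and Col1a1 to Vim (2.39 to 2.91) kept their sign. Col1a1 to Dcn, Col1a1 to Vim and the count of ratios, with their alternatives, were chosen after seeing the data. Over all genes, DESeq2 called 175 higher and 151 lower, and no filter 4 and 11, against 0 and 4. With 3 libraries a group, no exact test could go below 0.1.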
